A study of Mus musculus with 16 samples.

Results

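The enzymes of triglyceride synthesis were followed in primary mouse hepatocytes given itaconate, lipid or both. The group was defined by gene symbol as *Gpam*, *Gpat4*, *Agpat2*, *Agpat3*, *Lpin1*, *Lpin2*, *Lpin3*, *Dgat1*, *Dgat2* and *Mogat1*, and all 10 were found among the 55450 genes of the expression table. The hepatocytes came from the livers of wild-type mice and were held overnight in DMEM with serum and an insulin-transferrin-selenium supplement, which all 4 groups shared. One group was untreated, one received 10 mM sodium itaconate, one received a defined mixture of fatty acids (arachidonic, linoleic, myristic, oleic, palmitic and stearic) with cholesterol at a dilution of 1 in 10, and one received both. Each group had 4 libraries of bulk RNA-seq, lettered A to D. The labels do not say whether the letters are separate mice or separate cultures, and p-values therefore measure only the spread between these libraries. Levels are in CPM, the counts of a gene relative to the size of its library, scaled between libraries by TMM, and the total of estimated counts per library was between 22346049 and 35512004. Hepatocyte markers dominated: all 7 were above 1 CPM and their sum was 30352 to 54135 CPM. One library stood apart. Lipid + itaconate replicate B differed from the other 3 of its group by 86.9 to 119.5 times counting noise (chi-square per gene), while the remaining 21 within-group pairs were at 52.3 or less.

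Hepatocytes build triglyceride by adding fatty acids to glycerol 3-phosphate in a chain of steps in the endoplasmic reticulum and the outer mitochondrial membrane. Glycerol-3-phosphate acyltransferases (*Gpam*, *Gpat4*) make lysophosphatidic acid, the AGPAT enzymes (*Agpat2*, *Agpat3*) turn it into phosphatidic acid, the lipins (*Lpin1*, *Lpin2*, *Lpin3*) remove the phosphate to give diacylglycerol, and the DGAT enzymes (*Dgat1*, *Dgat2*) add the last acyl chain. *Mogat1* reaches diacylglycerol by another entry, from monoacylglycerol. Diacylglycerol and phosphatidic acid are also the branch points to the membrane phospholipids, and the liver stores the triglyceride in droplets or secretes it in lipoproteins.

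Lipid lowered most of this chain, and itaconate alone lowered 1 member. In lipid-treated against untreated hepatocytes 7 of the 9 members tested fell (*Gpam*, *Gpat4*, *Agpat2*, *Agpat3*, *Lpin1*, *Lpin2*, *Dgat2*) and none rose. Across all 11675 genes tested, 47.5% were called in that comparison and 23.7% were called lower (edgeR quasi-likelihood test, Benjamini-Hochberg adjusted p under 0.05). *Mogat1* had a mean of under 1 CPM and was left out of that fit. The median log2 fold change of the 9 members was −0.28, against 0.00 over all genes tested. The same 7 members fell in lipid + itaconate-treated against itaconate-treated hepatocytes, where 47% of all genes were called and 23.5% were called lower, with a median of −0.22 against 0.00. In itaconate-treated against untreated hepatocytes, 1 of 9 was called (*Lpin3*, lower) against 4.91% of all genes. With lipid present, lipid + itaconate against lipid, 0 of 9 was called by edgeR against 2.58% of all genes. DESeq2 called 1 there, against 509 of the 11222 genes to which it gave an adjusted p. An unadjusted edgeR p under 0.05 was seen for 5 of 9 in each itaconate comparison, with no share over all genes taken. The 4 comparisons share libraries in pairs, so that their values are given side by side and are not independent of each other. The counts of members called were the same without lipid + itaconate replicate B in all 4 comparisons. Without lipid + itaconate replicate C, which had the highest mitochondrial share of counts (6.01%, range 3.27 to 6.01%), the 0 of 9 became 4, the 1 of 9 with itaconate alone became 3 and the 7 of 9 on top of itaconate became 5. Calls over all 11675 genes then went from 301 to 891, from 573 to 1051 and from 5483 to 5161 in the same order.

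**Figure D1:**
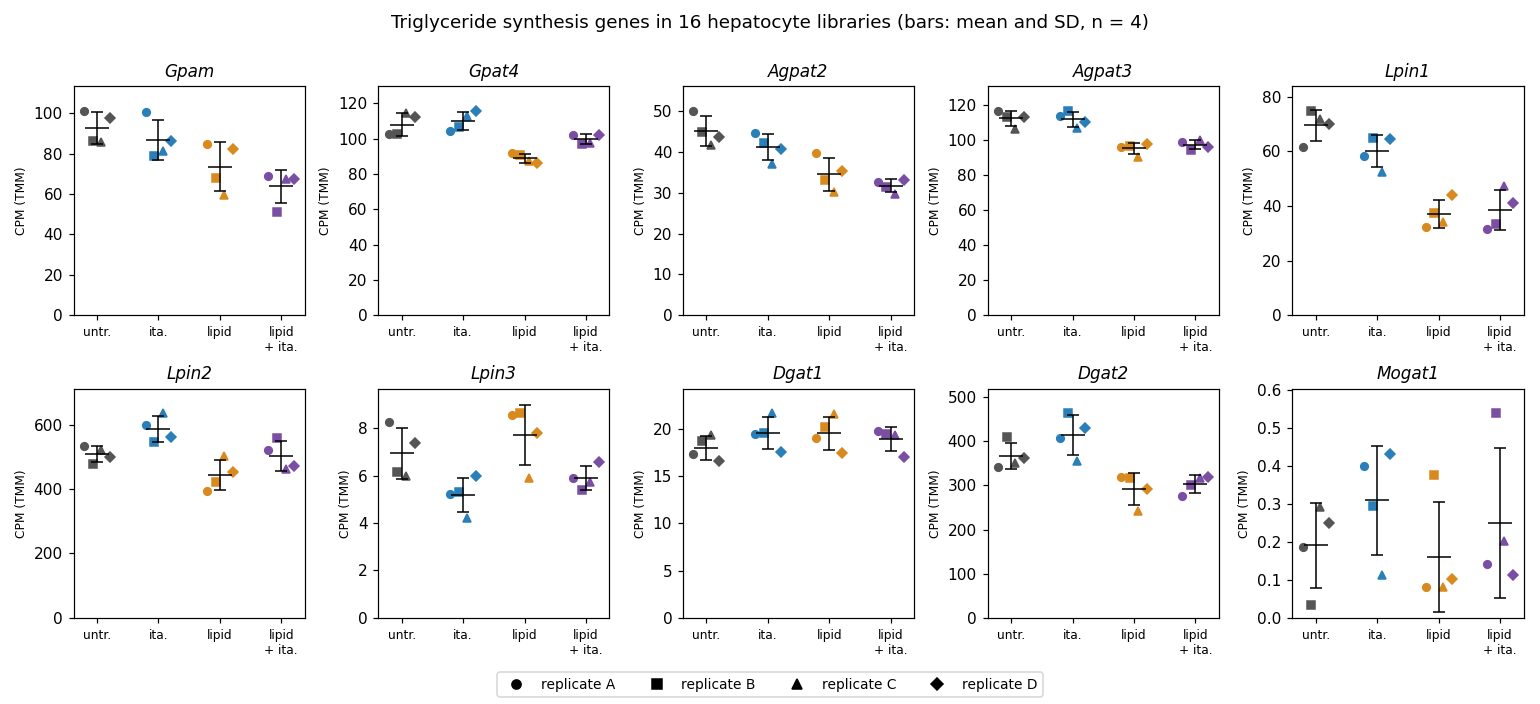
Level of each of the 10 genes in every library (CPM on a linear axis from 0), by treatment group, with a symbol for each replicate letter and the mean and SD of 4 libraries as a bar. The 4 lipid-treated libraries of *Lpin1* sit between 32.3 and 43.8 CPM, all below the untreated libraries at 61.5 to 74.9.

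Annotated in GRCm38 (GENCODE M21), *Lpin1* lies on chr12:16535669-16610966 on the minus strand, *Lpin2* on chr17:71182560-71249817 on the plus strand and *Lpin3* on chr2:160880670-160906002 on the plus strand. *Gpam* is on chr19:55067268-55127238, *Gpat4* on chr8:23171265-23208346, *Agpat2* on chr2:26593057-26604417, *Agpat3* on chr10:78269178-78352489, *Dgat1* on chr15:76502015-76511953 and *Dgat2* on chr7:99153658-99182719, all on the minus strand. *Mogat1* is on chr1:78510991-78538173 on the plus strand. Exons of *Agpat2* share 64 bases with *Egfl7* on the opposite strand, which had at most 130 counts in a library.

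Promoters of the members were read for known regulatory letters. RefSeq windows of 250 bases before to 50 after a start (GRCm38.p6) were at hand for 7 of 10 members (11 windows), and not for *Gpat4*, *Dgat1* and *Dgat2*. Of the 7 members that fell with lipid, 5 thus had a window, and *Lpin3* and *Mogat1* had windows and were not called with lipid. On both strands 4 motifs were searched. The core of the sterol regulatory element (TCACNCCAC) is in 1.24% of 32851 windows of that length, the E-box CACGTG in 7.15%, the direct repeat of AGGTCA with a spacer of 1 base in 0.04% and TATAAA in 13.6%. In the members the only hits were E-boxes, in the first window of *Lpin2*, from 9 to 4 bases before the start, and in the first window of *Lpin3*, from 22 to 27 bases after it. A match is a description of letters and not a binding site. The 250 bases before the start are shown for *Lpin1*, which fell most with lipid, for *Lpin2*, its more abundant relative, and for *Gpam*, the first enzyme of the chain. They lie at chr12:16610967-16611216 (minus strand), chr17:71183282-71183531 (plus strand) and chr19:55127239-55127488 (minus strand), and are printed 5′ to 3′ on the gene's strand with the E-box in capitals.
Lpin1: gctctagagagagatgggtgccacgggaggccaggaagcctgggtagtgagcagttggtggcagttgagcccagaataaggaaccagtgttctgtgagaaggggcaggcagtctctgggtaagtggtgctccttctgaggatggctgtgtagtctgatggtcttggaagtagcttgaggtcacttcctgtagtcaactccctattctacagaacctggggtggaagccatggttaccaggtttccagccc
Lpin2: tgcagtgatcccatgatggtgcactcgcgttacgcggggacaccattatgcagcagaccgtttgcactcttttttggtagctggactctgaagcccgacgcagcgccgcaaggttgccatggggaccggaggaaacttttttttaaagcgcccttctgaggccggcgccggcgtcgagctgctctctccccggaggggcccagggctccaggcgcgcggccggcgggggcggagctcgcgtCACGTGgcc
Gpam: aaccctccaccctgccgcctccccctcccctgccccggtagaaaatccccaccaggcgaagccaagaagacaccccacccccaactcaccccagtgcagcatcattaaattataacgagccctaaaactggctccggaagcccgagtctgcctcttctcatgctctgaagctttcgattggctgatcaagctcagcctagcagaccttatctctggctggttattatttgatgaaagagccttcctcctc

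Levels of different genes were set against each other per kilobase of exon, with all annotated exons of a gene counted, whichever transcripts were expressed. The order depends on this length, since in CPM *Lpin2* (509) was above *Dgat2* (366) in untreated hepatocytes. Per kilobase *Dgat2* was the highest member in untreated hepatocytes at 119 ± 9.66 CPM per kb (SD, n = 4). *Lpin2* followed at 41.6 ± 2.01, *Agpat2* at 21.2 ± 1.70 and *Gpat4* at 16.1 ± 0.951 CPM per kb. *Agpat3* at 14.4 ± 0.543 and *Gpam* at 13.9 ± 1.20 CPM per kb did not differ beyond their spread. *Lpin1* (7.19 ± 0.590) was above *Dgat1* (5.89 ± 0.420), *Lpin3* was at 1.88 ± 0.293 and *Mogat1* at 0.122 ± 0.0721 CPM per kb. *Dgat2* alone made up 49.2 ± 2.61% of the summed per-kb level of the 10 members in untreated hepatocytes, and 51.7 ± 3.16% with itaconate, 48.2 ± 3.34% with lipid and 48.4 ± 2.195% with both. The order of means changed at 1 place: *Lpin1*, the seventh in untreated cells, was below *Dgat1* with lipid (3.82 ± 0.521 against 6.39 ± 0.570 CPM per kb) and with both (3.98 ± 0.750 against 6.18 ± 0.405), where the libraries of the pair did not overlap. With itaconate alone the pair stood at 6.21 ± 0.617 and 6.39 ± 0.552, within their spread.

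**Figure D2:**
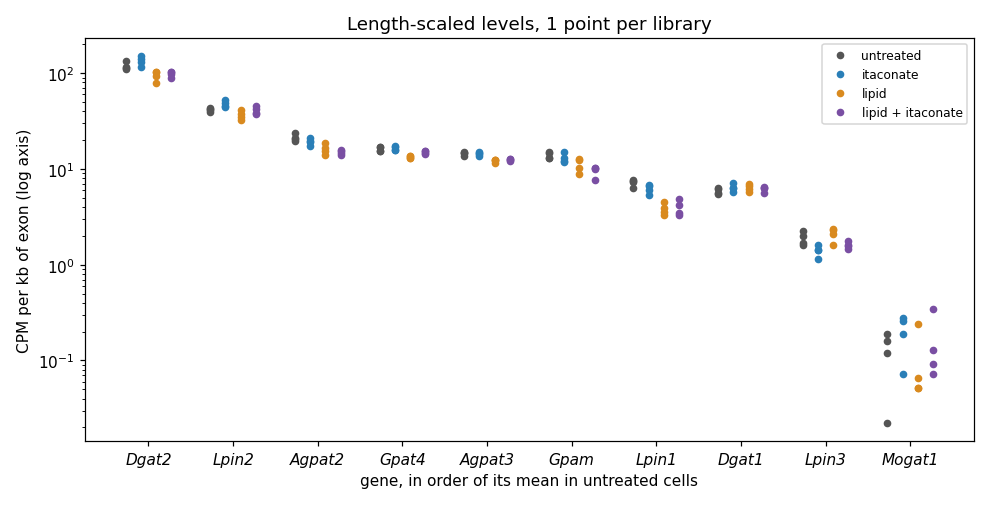
Level per kilobase of exon (CPM per kb, log axis) of the 10 members in each of the 16 libraries, in order of their mean in untreated hepatocytes, with 1 point per library and a colour for each treatment. *Dgat2* leads in every group, and *Lpin1* drops from above *Dgat1* to below it in the 2 groups with lipid.

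Both members of the first acyltransferase step fell with lipid. *Gpam*, the mitochondrial glycerol-3-phosphate acyltransferase, was at 101, 86.0, 85.8 and 97.8 CPM in untreated replicates A to D and at 84.8, 67.7, 59.3 and 82.1 CPM with lipid. With itaconate it was at 101, 78.8, 81.3 and 86.2 CPM and with both at 68.9, 51.2, 67.4 and 67.3 CPM. Every lipid-treated library was below every untreated one, and every lipid + itaconate-treated library was below every itaconate-treated one. The log2 fold change of *Gpam* was −0.34 (SE 0.071, adjusted p = 0.00107) with lipid alone and −0.44 (SE 0.071, adjusted p = 0.000141) with lipid on top of itaconate, lower in 4 of 4 letters each time. The itaconate change was −0.10 in cells not given lipid, where 4 of 4 letters were lower and the adjusted p was 0.441, and −0.20 in cells given it (95% interval −0.35 to −0.05, adjusted p = 0.154, lower in 3 of 4). That last value reached an adjusted p of 0.0113 without lipid + itaconate replicate C, at −0.29, and was −0.15 (adjusted p = 0.355) without replicate B.

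*Gpat4*, the glycerol-3-phosphate acyltransferase of the endoplasmic reticulum, was at 102, 103, 115 and 112 CPM in untreated and at 91.7, 90.5, 87.2 and 86.1 CPM in lipid-treated hepatocytes, with no overlap. Itaconate-treated libraries were at 104, 107, 113 and 116 CPM and lipid + itaconate-treated libraries at 102, 96.8, 97.5 and 102 CPM. The fall with lipid was −0.28 (SE 0.047, adjusted p = 0.000192) without itaconate and −0.14 (SE 0.047, adjusted p = 0.0219) with it. The smaller of these lost its call without itaconate replicate C (adjusted p = 0.0617), itaconate replicate D (0.0824) or lipid + itaconate replicate C (0.0611). Lipid + itaconate exceeded lipid in 4 of 4 letters (0.16, SE 0.047), but the adjusted p was 0.0761.

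Both members of the second step, *Agpat2* and *Agpat3*, fell with lipid. *Agpat2*, whose loss in people causes a congenital lipodystrophy, was at 50.2, 44.9, 41.7 and 43.8 CPM in untreated libraries and at 39.7, 33.1, 30.1 and 35.2 CPM with lipid. Itaconate-treated libraries were at 44.6, 42.2, 37.0 and 40.7 CPM and those with both at 32.7, 31.4, 29.7 and 33.3 CPM. Its libraries with lipid were below those without lipid in both pairs of groups. It fell by 0.39 on the log2 scale with lipid (SE 0.048, adjusted p = 1.09e-05) and by 0.37 with lipid on top of itaconate (SE 0.048, adjusted p = 1.86e-05). The itaconate value was −0.13 (adjusted p = 0.111) in the absence of lipid and −0.12 (adjusted p = 0.218) in its presence, each below in 4 of 4 letters and neither past the threshold. *Agpat3*, a broadly expressed lysophosphatidic acid acyltransferase, was at 112 ± 4.23 CPM (SD, n = 4) in untreated cells, 112 ± 4.35 with itaconate, 95.2 ± 3.34 with lipid and 97.3 ± 2.54 CPM with both. The lowest of the 8 libraries without lipid, at 107 CPM, was above all 8 with it. It fell by 0.24 (SE 0.041, adjusted p = 0.000202) and by 0.20 (SE 0.041, adjusted p = 0.000996) in the lipid comparisons. For itaconate its 95% intervals were −0.09 to 0.08 without lipid and −0.05 to 0.12 with it.

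Of the 3 lipins, *Lpin1* and *Lpin2* fell with lipid. *Lpin1*, a phosphatidate phosphatase that also acts as a transcriptional coactivator in liver, was at 61.5, 74.9, 71.6 and 70.03 CPM in untreated and at 32.3, 37.5, 34.2 and 43.8 CPM in lipid-treated libraries. Itaconate-treated libraries were at 58.4, 64.9, 52.3 and 64.4 CPM and those with both at 31.7, 33.5, 47.4 and 41.1 CPM. All 8 libraries with lipid were below all 8 without it. The log2 fold change with lipid was −0.91 (SE 0.099, adjusted p = 3.01e-06), which is a level 0.531 times that of untreated cells, and was the largest fall of the members. On top of itaconate it was −0.65 (SE 0.098, adjusted p = 8.61e-05). Itaconate alone gave −0.21 (95% interval −0.41 to −0.01, adjusted p = 0.224, lower in 4 of 4 letters) and in the presence of lipid 0.06 (interval −0.16 to 0.27, adjusted p = 0.825).

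*Lpin2*, the main lipin transcript of these cells, was at 534, 479, 523 and 499.8 CPM in untreated and 394, 423, 504 and 454 CPM in lipid-treated hepatocytes, so that lipid replicate C overlapped the untreated range. With itaconate it was at 601, 546, 636 and 561 CPM and with both at 521, 558, 462 and 471 CPM. The fall with lipid was −0.20 (SE 0.075, adjusted p = 0.0392) and on top of itaconate −0.22 (SE 0.075, adjusted p = 0.0261, lower in 3 of 4 letters). Both calls depended on single libraries. The first was lost without untreated replicate A (adjusted p = 0.124), C (0.0676) or D (0.0875) or lipid replicate A (0.172) or B (0.103), and the second without itaconate replicate A or C or lipid + itaconate replicate C or D (0.0623 to 0.0990). Each of the 4 itaconate-treated libraries was above the 4 untreated ones, and the rise of 0.20 (interval 0.04 to 0.36, SE 0.075) had an adjusted p of 0.130. With lipid present the value was 0.18 (interval 0.02 to 0.34, adjusted p = 0.216).

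*Lpin3*, a minor lipin in liver, was the only member called with itaconate alone. It was at 8.28, 6.16, 5.98 and 7.37 CPM in untreated and at 5.21, 5.31, 4.21 and 5.99 CPM in itaconate-treated libraries, which were lower in 4 of 4 letters but overlapped at 5.98 and 5.99 CPM. The log2 fold change was −0.42 (SE 0.11, adjusted p = 0.0455). Over 23 alternatives the change was between −0.48 and −0.34 and the adjusted p between 0.0214 and 0.226, and 9 of the 23 kept the call. In lipid-treated cells *Lpin3* was at 8.56, 8.64, 5.91 and 7.78 CPM and with itaconate added at 5.91, 5.38, 5.75 and 6.58 CPM. That change was −0.38 (SE 0.11, 95% interval −0.62 to −0.14, adjusted p = 0.0827), again lower in 4 of 4 letters. Lipid gave 0.15 (adjusted p = 0.265) without itaconate and 0.19 (adjusted p = 0.177) with it.

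As a share of the summed per-kb level of the 3 lipins, *Lpin1* made up 14.2 ± 1.56% without treatment, 11.2 ± 1.60% with itaconate, 9.09 ± 1.15% with lipid and 8.60 ± 2.09% with both (SD, n = 4). *Lpin2* held 82.1 ± 1.26%, 86.2 ± 2.02%, 85.9 ± 2.02% and 88.0 ± 2.40% in the same order. *Lpin3* held 3.71 ± 0.524%, 2.54 ± 0.444%, 5.03 ± 1.184% and 3.45 ± 0.462%. The share of *Lpin1* was lowest in the 2 groups with lipid.

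Of the 2 enzymes of the last step, *Dgat2* fell with lipid. *Dgat2*, which works mainly on newly made fatty acids, was at 342, 409, 352 and 362 CPM in untreated and at 319.8, 317, 242 and 291 CPM in lipid-treated libraries. With itaconate it was at 408, 464, 356 and 429.8 CPM and with both at 277, 301, 317 and 319 CPM. The libraries with lipid lay below those without it in both pairs. Its log2 fold change was −0.33 with lipid (SE 0.074, adjusted p = 0.00194) and −0.44 on top of itaconate (SE 0.074, adjusted p = 0.000202). Itaconate alone gave 0.17 (SE 0.074, adjusted p = 0.184, higher in 4 of 4 letters), and with lipid 0.06 (interval −0.10 to 0.22).

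*Dgat1*, a structurally unrelated enzyme for the same reaction, did not pass the threshold in any comparison. Its untreated libraries were at 17.3, 18.7, 19.4 and 16.6 CPM and those with itaconate at 19.4, 19.5, 21.7 and 17.5 CPM. With lipid the gene was at 19.0, 20.2, 21.5 and 17.4 CPM and with both treatments at 19.7, 19.5, 19.3 and 17.1 CPM. The 4 groups overlapped throughout. With lipid the value was 0.12 (95% interval −0.01 to 0.24, adjusted p = 0.111, higher in 4 of 4 letters) and on top of itaconate −0.04 (interval −0.17 to 0.08). With itaconate it was 0.12 (interval −0.01 to 0.24, adjusted p = 0.261) and in lipid −0.05 (interval −0.17 to 0.08).

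*Mogat1*, the monoacylglycerol acyltransferase, had between 1 and 15 counts in a library. Its mean level was 0.191 ± 0.112 CPM without treatment, 0.309 ± 0.143 with itaconate, 0.160 ± 0.144 with lipid and 0.249 ± 0.197 CPM with both. In a fit without the filter no comparison came near the threshold (adjusted p of at least 0.757), and differences of this gene were not detectable at this depth. Of its exon bases 12.8% are shared with *BC035947*, which had at most 3 counts in a library.

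**Figure D3:**
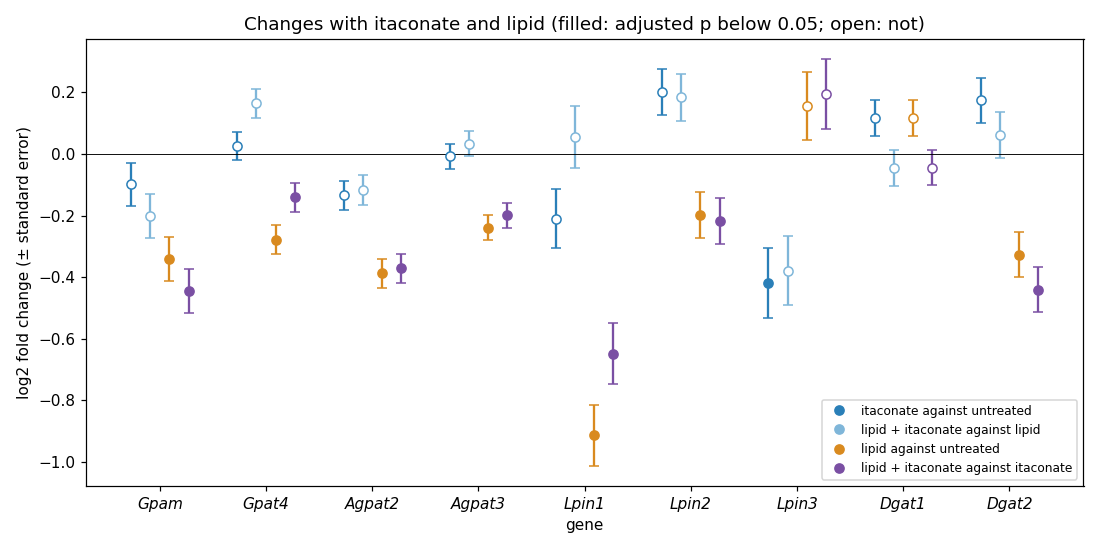
Log2 fold change with its standard error for the 9 members tested, in the 2 itaconate comparisons and the 2 lipid comparisons. Filled points have an adjusted p under 0.05. The lipid points are filled and below 0 for 7 genes, with *Lpin1* lowest at −0.91, and the single filled itaconate point is *Lpin3* at −0.42.

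Whether itaconate changed the response to lipid was asked by the interaction between the treatments. Across all genes edgeR called 1 (0.00857%), and of the 9 members it called 0, with 0 at an unadjusted p under 0.05. DESeq2 called 36 of the 6695 genes to which it gave an adjusted p, and 0 of the members among them. It gave none to *Dgat1* and *Lpin3*, so that for these it made no test of a call. The largest value was that of *Lpin1* at 0.26 (95% interval −0.03 to 0.56, adjusted p = 0.619, higher in 4 of 4 letters), followed by *Dgat1* at −0.16 (interval −0.33 to 0.01, adjusted p = 0.604, lower in 4 of 4 letters) and *Gpat4* at 0.14 (interval −0.00 to 0.28, adjusted p = 0.591, higher in 4 of 4 letters). The other 6 had values between −0.11 and 0.04. The narrowest interval was that of *Agpat3* (−0.08 to 0.16) and the widest that of *Lpin3* (−0.30 to 0.38).

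Ratios of isoenzymes within a library need no scaling between libraries. Counts of 4 pairs (*Gpam* to *Gpat4*, *Agpat2* to *Agpat3*, *Lpin1* to *Lpin2*, *Dgat2* to *Dgat1*) were compared in 4 comparisons by exact two-sided permutation tests, 16 in all, which moved libraries between groups without regard to the letter. The smallest p that 4 against 4 libraries can give is 0.0286, and after adjustment over the 16 tests the lowest was 0.114, so that none passed. With libraries exchanged within letters, a test chosen after seeing the data, the smallest p that can be had is 0.125, so that none could pass. The log2 ratio of *Lpin1* to *Lpin2* was −2.87 ± 0.183 in untreated and −3.59 ± 0.216 in lipid-treated hepatocytes (SD, n = 4), a difference of −0.71 with no overlap (exact p = 0.0286, lower in 4 of 4 letters). With itaconate it was −3.29 ± 0.245, a difference of −0.42 from untreated (exact p = 0.0571, lower in 4 of 4 letters), and with both −3.72 ± 0.386. The ratio of *Dgat2* to *Dgat1* was 4.35 ± 0.128 in untreated and 3.899 ± 0.277 in lipid-treated cells, a difference of −0.45 (exact p = 0.0286), and 4.41 ± 0.262 with itaconate and 4.01 ± 0.173 with both, a difference of −0.40 (exact p = 0.0571). For *Gpam* to *Gpat4* lipid alone made a difference of −0.07 (exact p = 0.686), whereas lipid + itaconate was below itaconate by −0.31 (exact p = 0.0286) and below lipid by −0.37 (exact p = 0.0571). With itaconate alone that ratio differed by −0.13, lower in 4 of 4 letters (exact p = 0.286). *Agpat2* to *Agpat3* was lower in the first group of every comparison and in 4 of 4 letters each time, by −0.13 to −0.17.

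**Figure D4:**
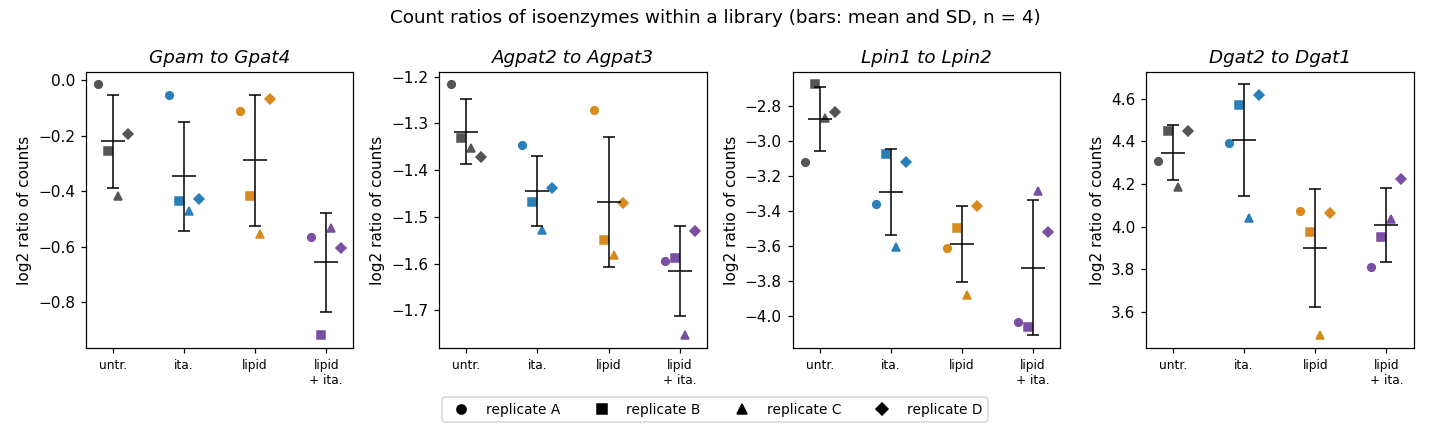
Log2 ratio of counts of 4 isoenzyme pairs in each library by group, with a symbol for each replicate letter and the mean and SD of 4 libraries. The lipid-treated libraries of *Lpin1* to *Lpin2* and of *Dgat2* to *Dgat1* all lie below the untreated ones, while *Gpam* to *Gpat4* is lowest with both treatments.

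The other genes of glycerolipid metabolism were taken from a list of 52, of which 44 were tested. With lipid 25 were called (56.8%, against 47.5% of all genes), and their median log2 fold change was −0.08. Of these, 9 were higher (20.5%, against 23.8% of all genes) and 16 lower (36.4%, against 23.7%). On top of itaconate 26 were called (59.1%, against 47%), 8 higher (18.2%, against 23.5%) and 18 lower (40.9%, against 23.5%), with a median of −0.10. The branch from diacylglycerol to phosphatidylcholine and phosphatidylethanolamine fell in 8 of 13 genes tested and rose in 1 with lipid, and with so few genes these counts are only a description. Among these were *Chka*, the choline kinase that starts that branch (−0.61, SE 0.055, adjusted p = 4.46e-07), and *Pcyt2*, which activates ethanolamine (−0.44, SE 0.057, adjusted p = 1.65e-05), while *Ptdss2*, which makes phosphatidylserine, rose by 0.49 (SE 0.071, adjusted p = 4.80e-05). The branch from phosphatidic acid to CDP-diacylglycerol fell in 5 of 6 genes. Of the relatives of the members, 2 are named after their values were seen. *Gpat3* was at 34.5 CPM in untreated and 32.0 CPM in lipid-treated cells (−0.10, adjusted p = 0.179) and fell on top of itaconate (−0.24, adjusted p = 0.00489), and *Agpat1* was at 14.2 and 13.9 CPM (−0.03, adjusted p = 0.802). *Agpat5*, a mitochondrial relative of the AGPAT members, fell by 0.43 (SE 0.064, adjusted p = 6.18e-05), and *Srebf1*, the transcription factor that drives lipid synthesis genes, fell by 0.67 (SE 0.066, adjusted p = 1.31e-06).

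Among the glycerol-3-phosphate dehydrogenases and glycerol kinase 4 genes were tested. Of these, 3 rose with lipid and none fell, with a median of 0.44, where 23.8% of all genes were called higher. *Gpd1*, the cytosolic glycerol-3-phosphate dehydrogenase, rose by 0.58 (SE 0.051, adjusted p = 3.09e-07), and *Gpd2*, its mitochondrial counterpart, rose by 0.57 (SE 0.075, adjusted p = 2.01e-05). *Gk*, the glycerol kinase, was at 97.7 CPM in untreated and 88.3 CPM in lipid-treated cells (−0.14, adjusted p = 0.154). With lipid on top of itaconate *Gpd1* (0.32) and *Gpd2* (0.30) rose and *Gk* fell (−0.29, adjusted p = 0.00734). *Dgkq*, a kinase that returns diacylglycerol to phosphatidic acid, rose by 0.39 (SE 0.083, adjusted p = 0.00111), as 1 of 2 kinases of 6 that rose.

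On top of itaconate, lipid lowered *Ppargc1a*, a coactivator of oxidative genes (−0.63, SE 0.14, adjusted p = 0.00177), *Srebf1* (−0.55, adjusted p = 9.81e-06), *Dgkh*, a diacylglycerol kinase (−0.53, adjusted p = 0.000301), and *Chka* (−0.50, adjusted p = 4.03e-06). It raised *Dgke*, another such kinase (0.47, adjusted p = 0.00561), *Ptdss2* (0.36, adjusted p = 0.000749), *Cnep1r1*, the regulatory partner of the phosphatase that acts on lipin 1 (0.33, adjusted p = 0.00108), and *Dgkq* (0.32, adjusted p = 0.00450). Itaconate alone raised 2 of the 44 (4.55%, near the 4.91% of all genes called), *Ppargc1a* (0.69, SE 0.14, adjusted p = 0.0121) and *Gk* (0.31, SE 0.080, adjusted p = 0.0366), each in 4 of 4 letters. Itaconate in the presence of lipid raised 1 (2.27%, near the 2.58% of all genes), *Agpat5* (0.31, SE 0.064, adjusted p = 0.0217), which was no longer called without lipid + itaconate replicate B. None of the 44 was called for the interaction by edgeR, and 3 had an unadjusted edgeR p under 0.05, with no share over all genes taken. DESeq2 called none of them either, but gave an adjusted p to only 6695 of 11675 genes, of which it called 36. How many of the 44 were among those was not counted.

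**Figure D5:**
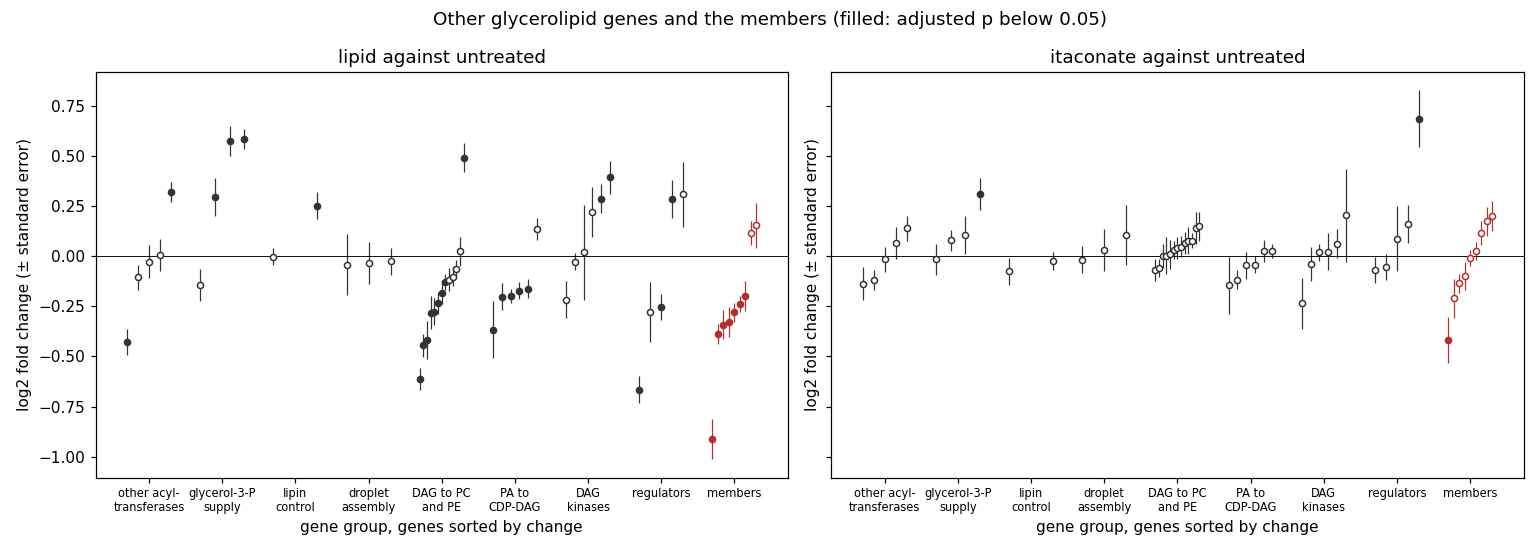
Log2 fold change with its standard error of the 44 other glycerolipid genes by functional group (grey) and of the 9 members (red), for lipid against untreated (left) and itaconate against untreated (right). Filled points have an adjusted p under 0.05: 25 of the 44 with lipid and 2 with itaconate.

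Markers of other kinds of cell were followed beside the results of the members. Itaconate alone raised *Lyz2* by 0.50 (adjusted p = 0.0166) and lowered *Cd68* by 0.24 (adjusted p = 0.0108), each in 4 of 4 letters. No other marker tested was called in that comparison, and none with itaconate in lipid. Uncalled falls in 4 of 4 letters with itaconate in lipid were *Lyve1* (−0.89, adjusted p = 0.0606), *Csf1r* (−0.76, 0.0568), *Clec4f* (−0.67, 0.139) and *Kdr* (−0.48, 0.202). These averaged 1.05 to 2.29 CPM, and no marker rose in all letters there. With itaconate alone *Kdr* (−0.60, adjusted p = 0.0852) and *Lyve1* (−0.57, 0.224) were lower in 4 of 4, among uncalled markers that moved both ways. In bulk RNA fewer cells of a type, less RNA per cell and expression of a marker by the hepatocytes themselves cannot be told apart. Averaged over the 16 libraries *Cd68* was at 218 CPM and *Lyz2* at 6.03 CPM. The other macrophage markers, *Adgre1*, *Clec4f*, *Csf1r* and *Ptprc*, were at 0.689 to 2.29 CPM. *Spp1* was at 529 CPM and *Sox9* at 112 CPM, while *Krt7*, *Krt19* and *Epcam* were at 0.00459 to 0.298 CPM. *Cd68*, which made up most of the macrophage marker sum, was higher with lipid by 0.43 (adjusted p = 5.36e-06) and the sum was 157 to 259 CPM in untreated and 217 to 312 CPM in lipid-treated libraries, with 5 of 6 macrophage markers above 1 CPM. The macrophage markers did not move together. *Adgre1* fell with lipid by 0.82 (adjusted p = 0.00521, lower in 4 of 4 letters), while *Clec4f* (−0.09), *Csf1r* (0.01) and *Lyz2* (−0.01) were not called. On top of itaconate *Cd68* rose by 0.58 and the other 4 fell, *Adgre1* by 1.52, *Csf1r* by 0.87, *Clec4f* by 0.62 and *Lyz2* by 0.59. The cholangiocyte sum was 599 to 1169 CPM in untreated and 335 to 608 CPM in lipid-treated libraries, with *Krt7*, *Krt19* and *Epcam* at or near 0. Both of its expressed markers fell, *Spp1* from a mean of 721 to 368 CPM (−0.97, adjusted p = 5.39e-08) and *Sox9* from 125 to 97.4 CPM (−0.37, adjusted p = 7.18e-05), and on top of itaconate they fell by 0.68 and 0.37. Of the 7 hepatocyte markers 6 were lower with lipid in 4 of 4 letters, and 2 of them were called, *Alb* (−0.18, adjusted p = 0.0142) and *Ttr* (−0.20, adjusted p = 0.0151). *Cps1* (−0.36, adjusted p = 0.0524), *Serpina1a* (−0.17, adjusted p = 0.0526), *Apoa1* (−0.21, adjusted p = 0.0634), *Cyp2e1* (−0.11, adjusted p = 0.268) and *Hnf4a* (0.11, adjusted p = 0.171) were not. On top of itaconate *Alb* (−0.18), *Ttr* (−0.20), *Cps1* (−0.57) and *Serpina1a* (−0.18) fell and *Hnf4a* rose by 0.21 (adjusted p = 0.0143). Stellate cell markers summed to 15.4 to 24.3 CPM with 1 of 5 above 1 CPM, endothelial markers to 10.3 to 20.8 CPM with 5 of 5, and adipocyte markers to 5.75 to 10.6 CPM with 2 of 5, *Adipoq* being at 0 or 1 count and *Lep* at 0 to 2 counts. Of these, *Stab2* of the endothelial markers fell (−0.55, adjusted p = 0.0312) and *Lyve1* rose (0.63, adjusted p = 0.0380) with lipid, and the adipocyte marker *Cidec* rose (0.34, adjusted p = 0.0390). In the lipid + itaconate against itaconate comparison *Stab2* (−0.50, adjusted p = 0.0483) and the stellate marker *Reln* (−0.23, adjusted p = 0.0411) fell and *Cidec* rose (0.33, adjusted p = 0.0487). The part of these transcripts in the fall of the members was not tested.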

How the data were processed

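Reads from 16 libraries were trimmed by the authors with Cutadapt 1.18, aligned to mm10 with STAR 2.7.0f and quantified on GENCODE genes with RSEM 1.3.1, and the deposited values are expected counts per gene without normalization, of which 5.41% were not whole. Rounded counts were tested with edgeR 4.0.16 in R 4.3.3 (TMM, quasi-likelihood test, treatment and replicate letter as terms, all 16 libraries in 1 model), on 11675 genes averaging 1 CPM or more, with Benjamini-Hochberg adjustment over them. The authors' own batch correction and tests came after these values. Letters were taken to pair the libraries, since all 24 correlations between deviations of same-letter libraries exceeded 0.1 (0.143 to 0.468). The 72 other pairs had a median of −0.114 and overlapped that range (−0.435 to 0.178). Deviations were from the group mean, which by itself pushes other pairs below 0 when same-letter pairs lie above it. No within-group pair agreed within counting noise.

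The members and gene lists were chosen with earlier results of these data known. Named are all 10 members, other glycerolipid genes called in an itaconate comparison, the 4 largest rises and falls with lipid, and for each member tested the 2 genes with the most alike pattern, some of which are not reported here. Alternatives were no letter term, RLE scaling, no filter, edgeR's filterByExpr, DESeq2 1.42.0, limma-trend (limma 3.58.1), only the 8 libraries compared, and each library left out. The code was tested on simulated data. Protein motifs were not analysed here.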

Additional observations from a re-analysis of the deposited data

Results flagged for a closer look

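Of the 40 gene and group combinations of the 10 members 3 held a library standing far from the rest of its group, where chance flags about 1 in 20. *Dgat1* was lowest in lipid + itaconate replicate D at 17.1 CPM, against 19.3 to 19.7 CPM in the others. *Gpam* was lowest in lipid + itaconate replicate B at 51.2 CPM, against 67.3 to 68.9 CPM, in the library that also stood apart over all genes, and its fall with lipid on top of itaconate was −0.39 without that library and −0.44 with it. *Mogat1* was highest in lipid replicate B at 0.376 CPM, which is 10 counts against 2 or 3 in the others.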

How the results depend on the processing

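The falls of *Gpam*, *Agpat2*, *Agpat3*, *Lpin1* and *Dgat2* were called in both lipid comparisons under all 23 alternatives, and that of *Gpat4* with lipid alone likewise. Members called with itaconate alone (1) became 0 without the replicate block, 4 without a filter, 0 with filterByExpr, 5 in the 8 libraries alone (*Agpat2*, *Lpin1*, *Lpin2*, *Lpin3*, *Dgat2*) and 0 to 3 with a library left out. Calls over all genes in these settings were 23 of 11675, 1091 of 25152, 532 of 13714, 1859 of 11675 and 149 to 1051 of 11675. With itaconate in lipid the count (0) became 2 without a filter, 1 with DESeq2 and 0 to 4 with a library left out, 4 being without lipid + itaconate replicate C (*Gpam*, *Gpat4*, *Lpin2*, *Lpin3*). Calls over all genes in these settings were 725 of 25152, 509 of 11222 and 59 to 891 of 11675. The 7 falls with lipid became 6 without the replicate block (*Lpin2*, adjusted p = 0.0612), which otherwise ended among members only the *Lpin3* call (0.226). For the other glycerolipid genes, the 2 called with itaconate became 0 without the replicate block, 4 in the 8 libraries and 0 to 2 with a library left out. The 1 called with itaconate in lipid became 0 without the block or in the 8 libraries, 2 with RLE, 3 without a filter, 3 with DESeq2 and 0 to 3 with a library left out. Calls over all 11675 genes in that comparison were 9 without the block, 14 in the 8 libraries and 302 with RLE. The interaction (0) became 2 without a filter, where 231 of 25152 genes were called. Uncalled values that changed sign were *Agpat3* with itaconate (0.0020 without a filter, −0.0244 to 0.0107 with a library left out), and with a library left out, in lipid, *Agpat3* (−0.00503 to 0.0549), *Lpin1* (−0.0876 to 0.137) and *Dgat2* (−0.0212 to 0.136), for the interaction *Agpat2* (−0.00891 to 0.0505), *Lpin2* (−0.109 to 0.0592) and *Lpin3* (−0.0424 to 0.127), and the ratios of *Gpam* to *Gpat4* with lipid (−0.141 to 0.0207), *Dgat2* to *Dgat1* with itaconate (−0.0123 to 0.180) and with itaconate in lipid (−0.0303 to 0.172). Exchanging libraries within letters (replicate block, chosen after seeing the data) gave every ratio test a p of at least 0.125, and the 4 ratio differences at an exact p of 0.0286 then missed the threshold, as the design forces. The causes were not tested. Precision limits *Mogat1*, at 1 to 15 counts.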

Other observations

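Of 9642 genes at 5 CPM or more on average, those whose log2 CPM over the 16 libraries ran most like each member, with the replicate letter removed, were found by Pearson correlation, as a description over libraries that share treatments. *Lpin1* ran most like *Tnfrsf22* (r = 0.987). *Agpat2* ran most like *Fam126a* (0.985) and *Otub1* (0.978), *Agpat3* like *Tax1bp3* (0.983) and *Ilk* (0.980), *Gpam* like *Srsf6* (0.956) and *Gpnmb* (0.956), and *Gpat4* like *Maz* (0.969) and *Rbpms2* (0.969). *Lpin2* ran most like *Spin1* (0.984) and *Ciart* (0.976), a repressor of the circadian clock, *Lpin3* like *Tubb2a* (0.965) and *Trim26* (0.946), and *Dgat2* like *Renbp* (0.971). *Dgat1* had the lowest values, with *Arl6ip6* (0.855) and *Ube3a* (0.853).

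Between members, the 15 pairs of *Gpam*, *Gpat4*, *Agpat2*, *Agpat3*, *Lpin1* and *Dgat2* had correlations of 0.526 to 0.963, the highest being *Agpat3* with *Lpin1*. These are the members that fell with lipid other than *Lpin2*, picked after their values were seen. A shared fall by itself raises correlations over libraries with and without lipid. *Lpin2*, which also fell, had 0.203 (*Gpam*) to 0.649 (*Gpat4*) with them. *Dgat1* had −0.54 to 0.165 with the other 8 tested, and *Lpin2* with *Lpin3* had −0.82.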
